A study of Rattus norvegicus with 20 samples.

Results

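Cacna2d2 (ENSRNOG00000015835) encodes the alpha2delta-2 auxiliary subunit of voltage-gated calcium channels, and it was 1 of the 32883 genes listed for each rat. It was chosen by its own readout, namely a TPM (a gene's share of all transcripts in the library, a level per gene length) that was lower in every obese rat than in every lean rat of the same cohort, in both cohorts. Choroid plexus RNA of 20 female Zucker rats, 16 weeks of age, had been sequenced as 1 library per rat. The untreated cohort held 6 lean (+/fa) and 6 obese (fa/fa) rats. The injected cohort held 4 lean control rats (+/fa), given sesame oil as vehicle (VEH), and 4 obese + TT rats (fa/fa), given testosterone propionate in sesame oil (TT). The lean rats of both cohorts carry 1 copy of the fa allele of the leptin receptor gene. No obese rat was injected with vehicle and no lean rat received testosterone, so obesity and testosterone cannot be told apart in the injected cohort. Differences between the cohorts join the injections, the oil and everything else that set the cohorts apart.

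Voltage-gated calcium channels consist of a pore-forming alpha1 subunit with auxiliary beta and alpha2delta subunits, and open when the membrane depolarizes. The alpha2delta proteins lie on the outer face of the membrane, and raise the number of channels at the cell surface. Alpha2delta-1 and alpha2delta-2 bind gabapentin and pregabalin, drugs against epilepsy and neuropathic pain, and loss of alpha2delta-2 causes ataxia and seizures in mice. The choroid plexus is the epithelium in the brain ventricles that secretes most of the CSF, resting on a stroma with leaky capillaries.

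The start region of the gene is shown because the groups differ in leptin receptor function and in testosterone, which act in part through STAT factors and the androgen receptor, proteins that bind DNA motifs. The letters come from RefSeq (build GRCr8, chr8:116950856-116951105, plus strand) and are the 250 bases before 1 annotated start of Cacna2d2. The capitals mark both matches to the GC box, GGGCGG, which lie on the minus strand and therefore read as its complement.
Cacna2d2 upstream region: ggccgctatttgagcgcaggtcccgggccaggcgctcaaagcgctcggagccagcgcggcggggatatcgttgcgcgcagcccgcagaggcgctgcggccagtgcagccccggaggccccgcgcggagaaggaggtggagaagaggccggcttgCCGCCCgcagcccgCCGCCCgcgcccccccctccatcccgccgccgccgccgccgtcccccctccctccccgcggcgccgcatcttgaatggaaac
The stretch is 76.8% G and C and holds 36 CpG pairs, where the median of 33469 RefSeq start regions of the same length was 51.2% and 5 pairs. A GC box stood in 30.5% of these regions. The androgen receptor core motif AGAACA, found in 17.5% of them on either strand, and the STAT motif TTCNNNGAA, found in 7.67%, had no match in these 250 bases. A match is a matter of letters only, and its absence from this window says nothing about either factor. Of the RefSeq genes on this chromosome, Cish, Hemk1 and C8h3orf18 come before Cacna2d2 and Tmem115, Cyb561d2 and Nprl2 after it as the nearest protein-coding genes. The symbol tables used here did not pair these 6 with identifiers, so no value is given for them. A pair of long noncoding RNA models, LOC134480230 and LOC120094259, overlap Cacna2d2 in RefSeq. Whether the library kept the strand is not given in the sources used here, so reads of overlapping transcripts may not have been separated.

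In the untreated lean rats Cacna2d2 was at 5.84, 7.56, 7.27, 6.07, 6.27 and 6.10 TPM in rats 1 to 6. In the untreated obese rats it was at 3.95, 3.81, 4.30, 5.75, 5.16 and 4.84 TPM in rats 7 to 12. Obese rat 10 came closest to the lean rats, 0.09 TPM under lean rat 1. In the lean control rats it was at 10.9, 12.57, 12.07 and 13.27 TPM in rats 13 to 16. In the obese + TT rats it was at 7.72, 5.60, 7.43 and 7.04 TPM in rats 17 to 20. The lowest lean control rat was 3.18 TPM above the highest obese + TT rat. Obese + TT rat 18 was the lowest of its group and lay among the untreated obese rats, below obese rat 10.

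**Figure D1:**
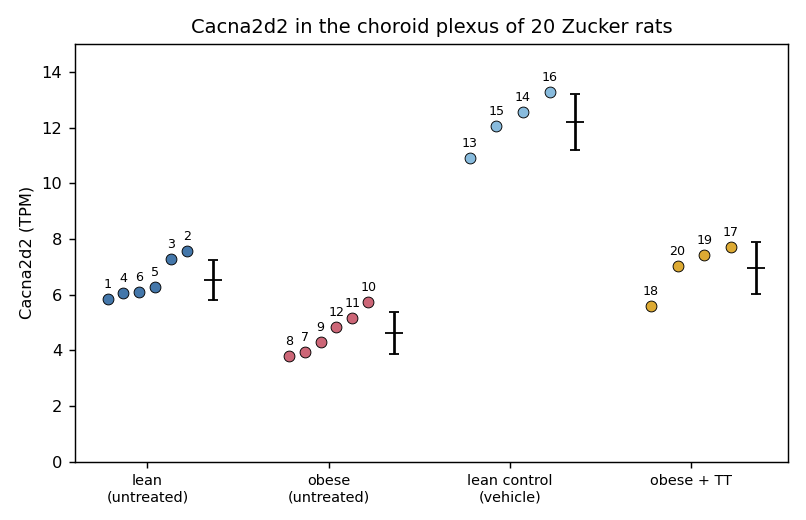
Cacna2d2 in TPM (vertical axis) in each of the 20 rats, with the rat number above each point and the mean ± SD of each group as a bar to its right. The 6 untreated obese rats lie between 3.81 and 5.75 TPM and the 4 lean control rats between 10.9 and 13.27 TPM, while the untreated lean rats and 3 of the 4 obese + TT rats lie between them and obese + TT rat 18, at 5.60 TPM, lies among the obese rats.

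In TPM the 4 groups were ordered by mean as obese, lean, obese + TT and lean control. Their means were 4.64 ± 0.75 TPM (SD, n = 6), 6.52 ± 0.71 TPM (SD, n = 6), 6.95 ± 0.94 TPM (SD, n = 4) and 12.2 ± 1.00 TPM (SD, n = 4). On the other scales, given below, lean and obese + TT changed places. The spread within a group was 11.0% of the mean in lean, 16.2% in obese, 8.18% in lean control and 13.5% in obese + TT rats. Lean and obese + TT rats, neighbours in this order, overlapped, and no difference was detected between them (exact two-sided permutation test of log2(TPM + 0.1), p = 0.467). The difference was 0.09 on the log2 scale, with a 95% interval from -0.16 to 0.33 in limma. Between these groups 9304 of 15365 genes had an adjusted p under 0.05 in limma, and the median gene moved by 0.26. Relative to that median, Cacna2d2 in the obese + TT rats differed by -0.18. The other neighbours in the order are the pairs that the choice of the gene used, and were not tested.

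Cacna2d2 was a gene of intermediate level in this tissue. Between 43.1 and 47.9% of the genes above 0 TPM were higher than Cacna2d2 in the untreated lean rats, and between 47.6 and 55.6% in the untreated obese rats. In the lean control rats 36.7 to 41.3% were higher, and in the obese + TT rats 47.7 to 55.1%. This rank does not depend on how libraries are scaled to each other. By rank the obese + TT rats spanned nearly the same range as the untreated obese rats, and untreated lean rats 1 and 5 and obese rat 10 overlapped. Between 14968 and 16860 genes were above 0 TPM in a library, and the fewest belonged to lean control rat 14. In a principal component analysis of the injected cohort this rat had a score of 78.7 on the leading component, where the others lay between -21.7 and 4.75. In TPM its Cacna2d2 was within the range of the other lean control rats. On some other scales, given below, it was the highest of them, at 12.5 FPKM and at 11.68 after the size factor. Without rat 14 the log2 fold change in TPM was -0.80 for obese + TT against lean control and 0.88 for lean control against untreated lean.

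The obesity contrasts of Cacna2d2 are given as a description, since the gene was chosen by them. In the untreated cohort the mean TPM of obese rats differed by -28.9% from that of lean rats, a log2 fold change of -0.49 (standard error 0.11, limma on log2(TPM + 0.1)). In the injected cohort obese + TT rats differed by -43.1% from lean control rats, a log2 fold change of -0.81 (standard error 0.12). The difference between these contrasts was not tested. Of all genes tested, 3.33% had a log2 fold change at or below that of Cacna2d2 in the untreated cohort and 2.3% in the injected one. In bulk tissue, fewer cells that express the gene and less RNA per cell cannot be told apart.

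No gene had an adjusted p under 0.05 in limma with Benjamini-Hochberg adjustment in either cohort (0.0% of 15176 and 0.0% of 15259 genes tested). At an unadjusted p under 0.05 there were 1466 and 1134 genes, 9.66% and 7.43%. The authors tested read counts of the same libraries with DESeq2 and did call genes in both cohorts at a false discovery rate under 0.05. The absence of calls is that of limma on TPM as run here, and does not show that no gene differed. Why the 2 methods differed was not tested. The pattern used to choose Cacna2d2 was met by 37 of 15406 genes in the untreated cohort (0.24%), by 251 in the injected cohort (1.63%) and by 3 in both (0.0195%). The other pair were Cst3 (ENSRNOG00000005195), which encodes the secreted protease inhibitor cystatin C, and ENSRNOG00000001173, for which no symbol was at hand. These 2 are named because they share the choice, and their values were seen first. Cst3, a far more abundant gene, spanned 42425.57 to 48045.91 TPM in the lean and 35881.18 to 41963.29 TPM in the obese rats. In the injected cohort the lean control rats spanned 33073.6 to 37531.53 TPM and the obese + TT rats 28311.45 to 29870.12 TPM. ENSRNOG00000001173 averaged 14.2 TPM in lean, 9.90 TPM in obese and 13.95 TPM in lean control rats, with 10.4 TPM after TT. Between the lean groups Cst3 was lower in the lean control rats (log2 fold change -0.34, adjusted p = 0.023 in limma), and ENSRNOG00000001173 differed by -0.03 (adjusted p = 0.839). The opposite pattern, every obese rat above every lean rat, was met by 45 genes in the untreated cohort (0.292%), by 358 in the injected cohort (2.32%) and by 2 in both (0.013%).

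The complete separation of the untreated groups was particular to TPM among the scales tried. TPM and FPKM (fragments per kilobase of transcript, scaled to the reads mapped) differ by 1 factor per rat, and Ttr (transthyretin, the main secreted protein of this epithelium) took 25.8 to 39.3% of the TPM of a library, so the scaling of a library touches every other gene. In FPKM obese rat 10, at 6.91, was above lean rat 1, at 6.88. With Ttr left out of the total, obese rat 10 was at 9.48 TPM and lean rats 1, 4 and 5 at 8.75, 9.30 and 9.11 TPM. After division by a median-of-ratios size factor (one number per rat that aligns the typical gene), obese rat 10 was at 6.73 and lean rats 1 and 5 at 6.42. On each of these 3 scales the other 5 obese rats were below every lean rat, and the ratio of the means was 0.714, 0.722 and 0.704 against 0.711 in TPM. In the injected cohort every obese + TT rat was below every lean control rat on all 4 scales, with ratios from 0.556 to 0.569. On the size factor scale 5 genes were lower without overlap in both cohorts (0.0325%), and Cacna2d2 was not among them.

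**Figure D2:**
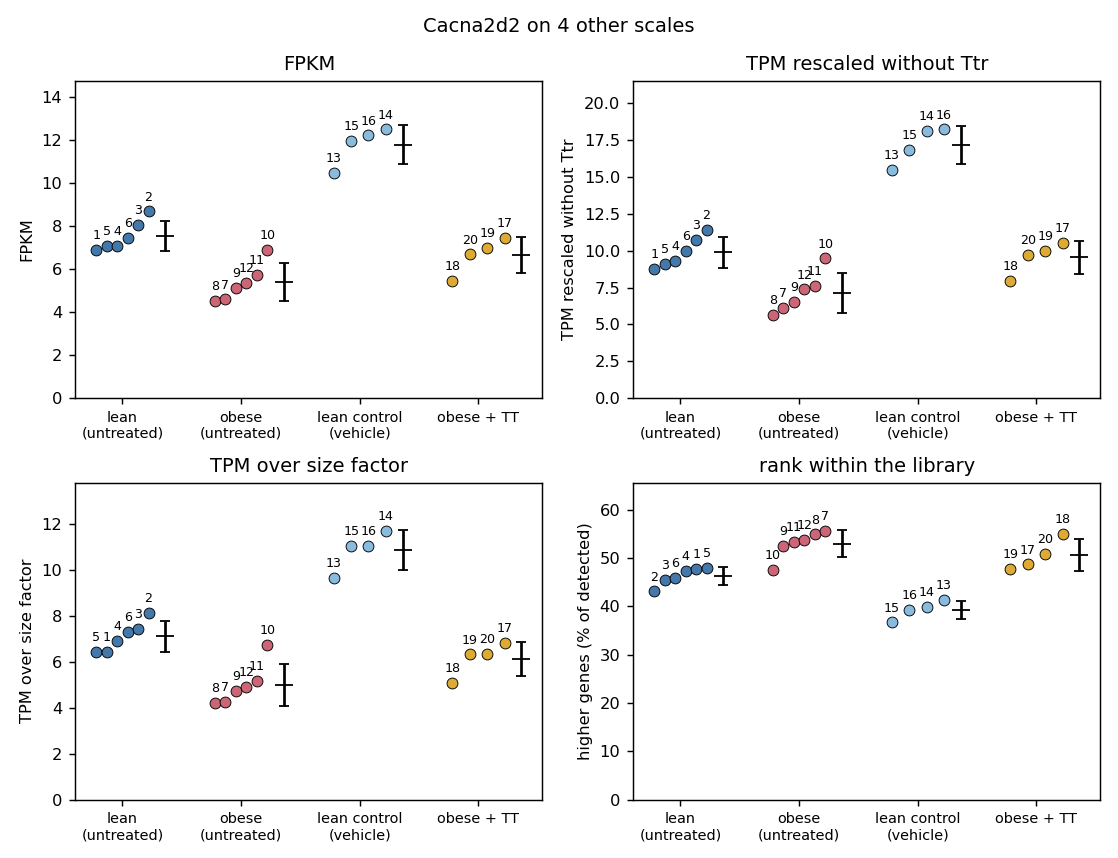
Cacna2d2 per rat as FPKM, as TPM rescaled without Ttr, as TPM over the size factor, and as the percent of detected genes that were higher, with rat numbers and the mean ± SD of each group as a bar to its right. In the first 3 panels obese rat 10 reaches into the lean rats (6.91 against 6.88 FPKM for lean rat 1) and the lean control rats lie above all others. In the rank panel a lower point means a higher gene, and the obese + TT rats (47.7 to 55.1%) lie beside the obese rats (47.6 to 55.6%).

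Comparisons across the cohorts were not used to choose the gene and were tested. The choice did use the levels of these same rats, so the tests are not wholly free of it. This includes the test of obese + TT against untreated lean rats. Cacna2d2 was 1.87 times as high in the lean control rats as in the untreated lean rats, and every lean control rat was above every untreated lean rat. The log2 fold change was 0.90 (95% interval 0.68 to 1.11, adjusted p = 8.41e-06 in limma), and the exact two-sided permutation test gave p = 0.00476, the smallest that 210 splits of the rats allow (0.0143 adjusted over the 3 pairs of groups tested). This stands on a background in which 8925 of 15326 genes (58.2%) had an adjusted p under 0.05 and 41.7% were higher in the lean control rats. At an unadjusted p under 0.05 the share was 62.5%. In 33.9% of genes every lean control rat was above every untreated lean rat. The median gene moved by 0.24 on the log2 scale, so relative to it Cacna2d2 was 0.65 higher, and 16.9% of all genes had a fold change as large.

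Cacna2d2 was also higher in the obese + TT than in the untreated obese rats. The ratio of the means was 1.5 and the log2 fold change 0.58 (95% interval 0.28 to 0.88, adjusted p = 0.00347 in limma), with an exact two-sided permutation p of 0.0143 (0.0214 adjusted over the 3 pairs). Of the 4 obese + TT rats, 3 were above every untreated obese rat and rat 18 was not. The background was again large, with 8941 of 15389 genes called (58.1%, and 62.3% at an unadjusted p under 0.05). Of all genes tested, 41.7% were called higher in the obese + TT rats, 34.0% were higher in every obese + TT rat than in every obese rat, and 30.3% had a fold change as large as that of Cacna2d2. The median gene moved by 0.25, leaving Cacna2d2 0.33 higher. After division by the size factor the log2 fold change was 0.30 and no longer passed (95% interval 0.00059 to 0.60, adjusted p = 0.0806 in limma, exact permutation p = 0.081).

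The step between the lean groups remained past the threshold on every scale. On the size factor scale Cacna2d2 was at 7.10 ± 0.66 in untreated lean and 10.9 ± 0.86 in lean control rats (SD, n = 6 and n = 4), a log2 fold change of 0.61 (95% interval 0.42 to 0.79, adjusted p = 8.14e-05 in limma). In FPKM the ratio was 1.57 and the permutation p was 0.00476. The scaling set the direction of the typical gene: 71.6% of the genes called were higher in the lean control rats in TPM, 62.6% without Ttr, 49.9% in FPKM and 47.2% after the size factor. Between the obese groups these shares were 71.8, 58.6, 48.5 and 48.0%. On the size factor scale the obese + TT rats were at 6.14 ± 0.74 (SD, n = 4), below the untreated lean rats by 0.21 on the log2 scale (exact permutation p = 0.0476, 0.0714 adjusted over the 3 pairs). In FPKM and without Ttr the obese + TT mean was also under the untreated lean mean, with ratios of 0.883 and 0.965, against 1.07 in TPM. The exact permutation p was 0.105 and 0.629 on these scales, before adjustment.

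**Figure D3:**
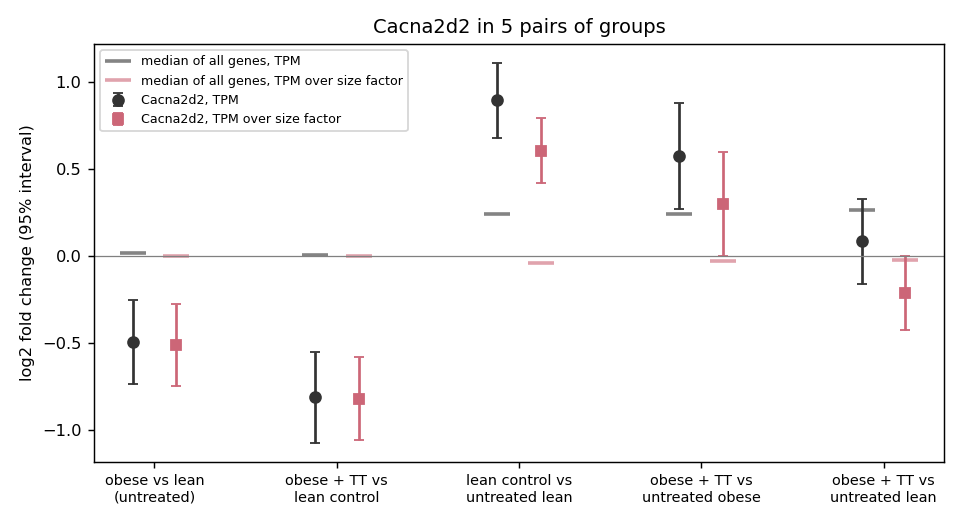
Log2 fold change of Cacna2d2 (points, with 95% intervals from limma) in 5 pairs of groups, in TPM (circles) and in TPM over the size factor (squares), with the median of all genes tested as a short bar. The gene was chosen by the obesity contrasts, so their intervals are a description and not a test. The obesity contrasts lie at -0.49 and -0.81 in TPM, the lean groups differ across cohorts by 0.90 in TPM and 0.61 after the size factor, and the median of all genes lies at 0.24 in TPM for that pair.

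Several markers of other cells differed between the cohorts. Of 91 marker genes in 12 lists, 29 had a symbol in the tables used here, and none of the markers listed for neurons in general, oligodendrocytes, macrophages or the pineal gland had one, so those cells could not be checked. The 12 epithelial markers were all present, among them Folr1, a folate receptor, and Kcnj13, a potassium channel, and 10 of 12 were called higher in the lean control than in the untreated lean rats (adjusted p under 0.05, as were 41.7% of all genes), with a median log2 fold change of 0.57. On the size factor scale 8 were called higher and 1 lower, where 27.9% of all genes were called higher and 31.2% lower, and the median was 0.27. Folr1 differed by 0.02 on that scale (adjusted p = 0.723 in limma). Ttr, the most abundant of the 12, went the other way in TPM. It differed by -0.23 between the lean groups (adjusted p = 0.378) and by -0.35 between the obese groups (adjusted p = 0.0417 in limma). Plvap, which marks fenestrated endothelium, was between 39.95 and 51.07 TPM in untreated lean and between 1.68 and 10.58 TPM in lean control rats. In obese rats it was between 43.39 and 60.34 TPM, and between 3.46 and 6.74 TPM in obese + TT rats. The pericyte gene Rgs5 differed by -4.47 on the log2 scale between the lean groups, and the fibroblast genes Dcn and Dpt, both of the extracellular matrix, by -3.08 and -4.21. Pdgfra, also listed for fibroblasts, was higher by 1.31. Myh11, of smooth muscle, differed by -0.14 between the lean groups (adjusted p = 0.39) and by -1.07 between the obese groups. The single astrocyte marker with a symbol, Gja1, differed by -1.74 and -0.90.

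The summed fibroblast markers (4 of 7) lay between 134.1 and 186.4 TPM in the untreated cohort and between 53.87 and 93.01 TPM in the injected one. The summed mural markers (Rgs5 and Myh11, 2 of 7) lay between 81.57 and 135.4 TPM in the untreated cohort and between 8.09 and 17.39 TPM in the injected one. The summed epithelial markers, mostly Ttr, lay between 322500 and 399600 TPM in untreated lean and between 288200 and 320200 TPM in lean control rats. They lay between 333800 and 402900 TPM in obese and between 274300 and 310800 TPM in obese + TT rats. Between the lean groups, where Cacna2d2 rose, 10 of 12 epithelial markers were called higher, and Plvap, 1 of 2 mural and 3 of 4 fibroblast markers were called lower, with 1 fibroblast marker called higher. Of all genes, 41.7% were called higher and 16.5% lower. Their part in the rise of Cacna2d2 was not tested. Of the 10 genes listed for cerebellar neurons, which are rich in alpha2delta-2, only Zic1 and Itpr1 had a symbol, and the sum of both lay between 87.9 and 124.5 TPM in the untreated and between 168.3 and 211.9 TPM in the injected cohort. Zic1 alone differed by 0.36 between the lean groups in TPM and by 0.07 after the size factor, and Itpr1 is also a gene of many other cells.

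None of the 29 markers had an adjusted p under 0.05 for obesity in limma in either cohort, as was true of every gene tested (0.0% called). The epithelial list had a median log2 fold change of -0.04 in the untreated and 0.01 in the injected cohort, against -0.49 and -0.81 for Cacna2d2, but its members differed among themselves. Of the 12, 1 and 2 had an unadjusted p under 0.05, against 9.66% and 7.43% of all genes. Prlr, the prolactin receptor, was between 244.79 and 289.13 TPM in the lean control rats and between 147.84 and 184.94 TPM with TT, without overlap, a log2 fold change of -0.63 (adjusted p = 0.127 in limma). In the untreated cohort Prlr differed by -0.11 and its groups overlapped. The cerebellar pair had medians of -0.05 and -0.08, and the mural pair of 0.09 and -0.44. Of the mural pair, Myh11 was between 6.15 and 8.43 TPM in the lean control rats and between 3.90 and 5.34 TPM with TT, also without overlap, a log2 fold change of -0.74 at an unadjusted p under 0.05 (adjusted p = 0.375 in limma). In the untreated cohort Myh11 differed by 0.20. Gja1 differed by -0.07 and 0.76, the latter at an unadjusted p under 0.05. The erythroid markers (the globin genes Hba-a1, Hba-a2 and Hbb, and Slc4a1, the anion exchanger of red cells) had medians of 0.42 and 1.13, with 4 of 4 and 3 of 4 at an unadjusted p under 0.05, against 9.66% and 7.43% of all genes. The part of these markers, Prlr and Myh11 in the Cacna2d2 contrasts was not tested. Their summed level lay between 3105 and 5471 TPM in lean, 4052 and 7019 TPM in obese, 2168 and 5768 TPM in lean control rats, and reached 4799 to 8388 TPM with TT. The groups of each cohort overlapped in this sum, which the globins dominate. Slc4a1, a low gene, did not overlap in either cohort, with 0.09 to 0.29 TPM in lean against 0.30 to 0.73 TPM in obese rats and 0.13 to 0.34 TPM in lean control against 0.53 to 0.96 TPM in obese + TT rats. Its log2 fold changes were 1.01 and 1.37, so it is 1 of the 2 genes that met the opposite of the pattern by which Cacna2d2 was chosen.

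**Figure D4:**
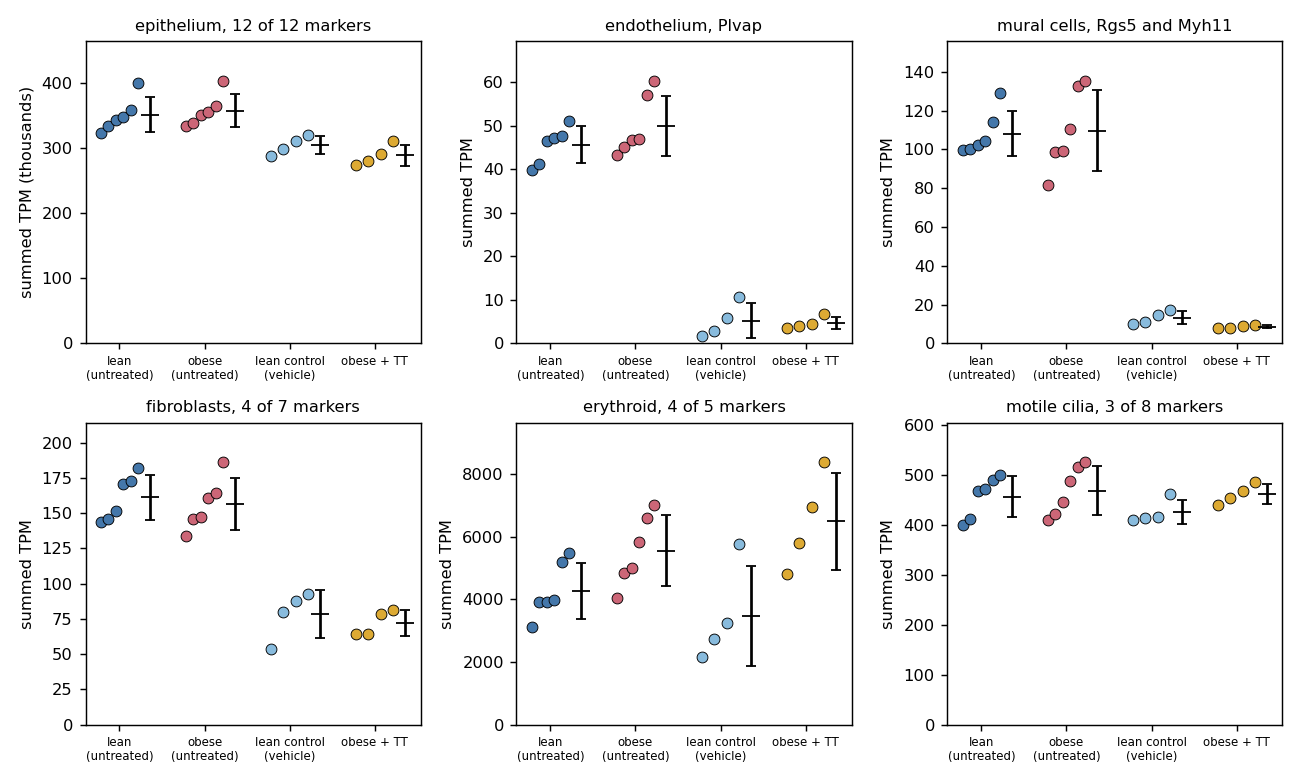
Summed TPM of the marker genes with a symbol, per rat, in 6 of the lists, with the mean ± SD of each group as a bar to its right. Plvap lies at 39.95 to 60.34 TPM in the untreated rats and at 1.68 to 10.58 TPM in the injected rats, and the mural and fibroblast sums separate the cohorts in the same way, while the motile cilia genes lie between 399.6 and 526.1 TPM throughout. After the size factor 3 of 3 cilia genes were called lower between the lean groups and 2 of 3 between the obese groups. Of all genes, 31.2 and 29.9% were called lower on that scale.

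Other genes of calcium entry, release and extrusion, and partners of alpha2delta proteins, were read from lists of 77 genes. Of these, 14 had a symbol, Cacna2d2 included, and Lrp1 and Prnp are the partners among them. Of the 26 channel subunit genes (10 alpha1, 4 alpha2delta, 4 beta and 8 gamma), Cacna2d2 was the only one with a symbol, so neither its channel partners nor its paralogs could be read. The tables name mostly abundant genes and genes the study called, and P2rx6 and Calhm1 are among those the study chose on these libraries. In the obesity contrasts none of the other 13 had an adjusted p under 0.05 in limma, as was true of all genes (0.0% called). At an unadjusted p under 0.05 there were 1 and 0 of 13, against 9.66% and 7.43% of all genes. Their log2 fold changes lay between -0.47 and 0.10 (median -0.10) in the untreated and between -0.13 and 0.09 (median -0.01) in the injected cohort. The lowest value, -0.47, was that of Calhm1, and the highest of each cohort, 0.10 and 0.09, were those of the partner Lrp1. The medians over all genes tested were 0.02 and 0.01.

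Across the cohorts the same 13 genes were mostly higher in the injected rats. Between the lean groups 11 of 13 were called higher and none lower, where 41.7% of all genes were called higher. Between the obese groups 12 of 13 were called higher, where the share of all genes called higher was also 41.7%. The median of the 13 was 0.89 and 1.07 on the log2 scale, against 0.24 and 0.25 for all genes. Cacna2d2, at 0.90 and 0.58, was thus near the middle of these genes in lean rats and under it in obese rats. On the size factor scale 10 were higher and 2 lower between the lean groups, and 10 higher and 1 lower between the obese groups, where 27.9 and 27.6% of all genes were higher and 31.2 and 29.9% lower.

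Of the entry genes, Trpm3, a cation channel of this epithelium, was at 67.5 ± 8.56 TPM in untreated lean and 178.2 ± 13.2 TPM in lean control rats (SD, n = 6 and n = 4), a log2 fold change of 1.41. Stim1 and Stim2, the calcium sensors of the endoplasmic reticulum, rose by 0.63 and 0.48. Trpv4, a channel opened by osmotic swelling, rose by 0.40 in TPM (adjusted p = 0.00517) but differed by 0.11 after the size factor (adjusted p = 0.249 in limma). P2rx6, a subunit of ATP-gated channels, differed by -0.01 in TPM (adjusted p = 0.875) and by -0.31 after the size factor (adjusted p = 0.00102 in limma). Calhm1, a low gene that forms a large-pore channel, had means of 2.44 and 4.50 TPM, a log2 fold change of 0.89.

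Of the release and extrusion genes, Itpr1, the receptor that releases stored calcium in answer to IP3, lay between 45.97 and 55.28 TPM in untreated lean rats and between 113.06 and 122.71 TPM in lean control rats. Its log2 fold change was 1.23. Atp2a2, the pump that fills the endoplasmic reticulum, rose by 1.10, and the plasma membrane pump genes Atp2b2 and Atp2b3 by 1.14 and 1.32. Atp2c1, a pump of the Golgi, rose by 0.73. Lrp1 and Prnp were listed as partners of alpha2delta proteins. Lrp1, an endocytic receptor that assists the traffic of these proteins, had the largest rise of the 13 genes, 1.69. Prnp, the prion protein gene, differed by 0.03 in TPM (adjusted p = 0.724) and by -0.26 after the size factor (adjusted p = 4.07e-04 in limma). Between the obese groups its call changed direction with the scale, at 0.15 in TPM (adjusted p = 0.0379) and -0.14 after the size factor (adjusted p = 0.0438 in limma).

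**Figure D5:**
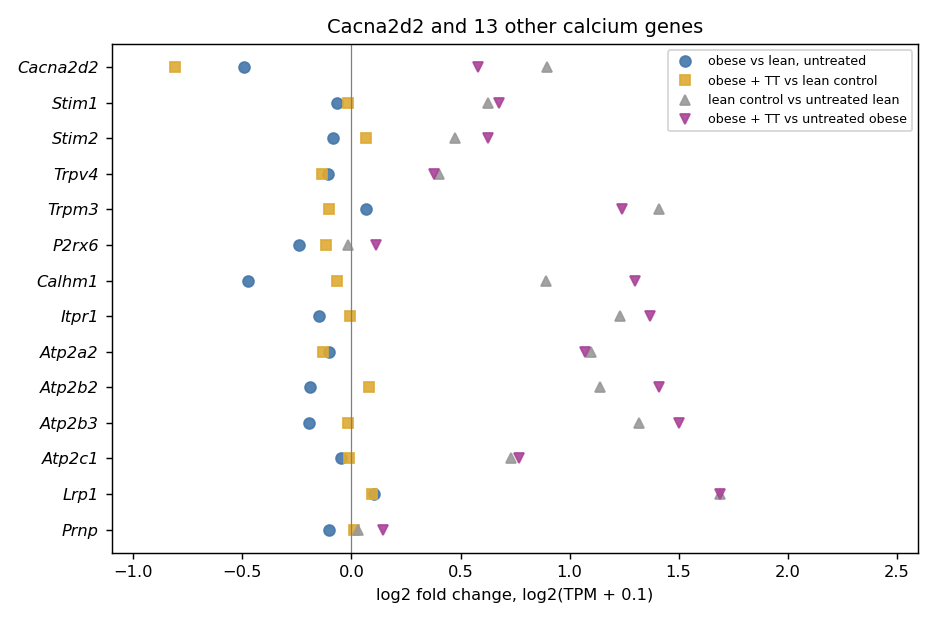
Log2 fold changes of Cacna2d2 and the 13 other listed genes with a symbol (rows) in the 4 comparisons, on log2(TPM + 0.1). Lrp1 and Prnp are partners of alpha2delta proteins, and the others are calcium genes. In the obesity contrast of the untreated cohort (circles) the other genes lie between -0.47 and 0.10, and in that of the injected cohort (squares) between -0.13 and 0.09. Cacna2d2, which was chosen by these contrasts, lies at -0.49 and -0.81. In the comparisons across cohorts (triangles) most genes lie to the right of 0, with Lrp1 at 1.69.

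The genes most like Cacna2d2 were sought among the 12094 genes that averaged 1 TPM or more, by Pearson's r of log2(TPM + 0.1) over the 20 libraries. The points share libraries, cohorts and their scaling, and r is given as a description. As measured, the highest were Tmem130 (0.938), ENSRNOG00000000595 and Rdh11 (0.924 each), Abat (0.909) and Syt13 (0.9). Rdh11 encodes a retinol dehydrogenase, Abat the enzyme that breaks down GABA, and Syt13 a member of the synaptotagmin family. Tmem130, which encodes a transmembrane protein, was at 3.97 ± 0.78 TPM in lean, 2.50 ± 0.40 TPM in obese, 8.15 ± 0.97 TPM in lean control rats and 5.33 ± 0.90 TPM with TT (SD, n = 6, 6, 4 and 4). Its groups overlapped in the untreated cohort, where obese rat 11 was at 3.16 TPM and lean rat 1 at 3.08 TPM. All 5 had a negative log2 fold change in both obesity contrasts, from -0.25 to -0.64 and from -0.29 to -0.61 (untreated and injected cohort). The search used these groups, so the shared sign is a description of the choice.

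With the mean of each group subtracted, so that only differences among rats of a group remain, the highest of those reported were ENSRNOG00000042929 (0.81), Pdzd2 (0.809), ENSRNOG00000025028 (0.803) and AABR07031193.1 (0.782). Pdzd2 encodes a protein with PDZ domains. Their log2 fold changes in the injected cohort lay between -0.09 and 0.04, against -0.81 for Cacna2d2. Pdzd2 was at 23.6 ± 2.64 and 22.2 ± 3.53 TPM in the lean control and the obese + TT rats (SD, n = 4 and n = 4), where Cacna2d2 was at 12.2 and 6.95 TPM. In the untreated cohort the log2 fold changes of these 4 genes lay between -0.11 and -0.48. Within groups, Cacna2d2 had an r of 0.023 with the number of genes above 0, -0.0479 with the Ttr share and 0.276 with the size factor, over the same 20 libraries.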

How the data were processed

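Choroid plexus of 20 rats was sequenced in paired-end reads by the authors, who mapped the reads with STAR 2.7.9a to Rnor_6.0. The submitters' processing notes also list RSEM 1.3.3. The deposited files give TPM per gene and rat, and FPKM, both made by the authors before deposit. FPKM is TPM times 1 factor per rat. The paper gives a nominal sequencing output, but the depth of each library could not be read from the files, since FPKM ratios of library pairs showed no step of whole reads, and precision was judged from the spread between rats. Each rat is 1 library, so n counts animals.

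The genes and lists were chosen with earlier results of these data known. Groups came from the sample titles. limma 3.58.1 in R 4.3.3 was run on log2(TPM + 0.1), keeping genes that averaged 0.1 TPM or more in the libraries compared, with a trend in eBayes and Benjamini-Hochberg adjustment over all genes tested. The authors tested read counts with DESeq2 and called genes in both obesity contrasts. The files hold TPM and FPKM, so limma took its place, and as run here it called none in either contrast. Cacna2d2 was also compared by exact two-sided permutation tests. The comparison of obese + TT with untreated lean rats, and the overlap and list counts on other scales, were chosen after seeing the data. Size factors are the median ratio of 13445 genes above 0 in all libraries. By rule, the named genes were Cacna2d2, voltage-gated channel genes averaging 0.1 TPM or more, and other calcium or partner genes called in 1 of the comparisons. The 5 most like Cacna2d2 by each measure and its nearest 3 protein-coding genes on each side were also named. Of the 5 most alike within groups, 1 is not reported here. Cst3 and ENSRNOG00000001173 were named after their values were seen. Symbols came from the paper's Additional files, which name 2616 of 32883 identifiers, and their values were not used. Alternatives were the pseudocount, the filter, the eBayes options, the scaling, 1 fit of all 20 libraries and leaving out each rat. The test was checked on simulated data with 200 changed genes. At a log2 change of 0.5 it recovered 32.3% of the changed genes in the untreated and 27.6% in the injected contrast. At a log2 change of 1.0 it recovered 78.7 and 71.1%, and called 14 and 13 genes that were not changed. Python 3.11.15 made the tables and figures.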

Additional observations from a re-analysis of the deposited data

Results flagged for a closer look

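The TPM of 26 named genes, Cacna2d2 included, was checked in each of the 4 groups for a rat far from the others by Dixon's test. There were 2 such rats, where chance alone gives about 5.2 over this many checks. Atp2b3 was at 515.44 TPM in lean control rat 16, above the other lean control rats (417.74 to 434.33 TPM). Among the obese + TT rats, rat 19 had 425.6 TPM of Prnp and the remaining rats 390.01 to 395.92 TPM. Cacna2d2 itself had no such rat in any of the 4 groups. Otx2 and Hba-a1, read here as cell type markers, were not among the genes checked. Otx2 was at 7.85 TPM in obese rat 10 (other obese rats 67.29 to 85.94 TPM). It was at 200.06 TPM in obese + TT rat 20 (the others 107.3 to 115.01 TPM). Hba-a1 was at 3302.78 TPM in lean control rat 13 (the others 1213.2 to 1286.82 TPM).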

How the results depend on the processing

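The log2 fold change of Cacna2d2 in the untreated obesity contrast lay between -0.51 and -0.42 over 9 alternatives and between -0.56 and -0.44 when each rat was left out. In the injected contrast it lay between -0.85 and -0.74, and between -0.86 and -0.71. For lean control against untreated lean it lay between 0.61 and 0.90 (adjusted p from limma 2.14e-06 to 8.14e-05), and between 0.86 and 0.95 without each rat. For obese + TT against untreated obese it lay between 0.30 and 0.58 (adjusted p 3.21e-04 to 0.0806), and between 0.52 and 0.68 without each rat. This last call was lost after division by the size factor (0.30) and in FPKM (0.31, adjusted p = 0.0682). The median of all genes was then -0.02 on both scales, where it was 0.25 in TPM, and the cause of the lost call was not tested. The other alternatives kept both calls across cohorts.

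The number of genes called in the untreated contrast, 0 as reported, was 1 after the size factor, 1 in FPKM and 3 in the fit of all 20 libraries, and ranged from 0 to 1 when rats were left out (1 without lean rat 2, lean rat 6 or obese rat 7). In the injected contrast it was 2 after the size factor and 6 in the fit of all 20 libraries, and ranged from 0 to 25 (25 without lean control rat 13, 4 without obese + TT rat 19, 3 without lean control rat 15, 2 without obese + TT rat 17, 1 without rat 14 or rat 20). The cause was not tested. Counts across the cohorts stayed within 7809 and 9130 in every alternative. No paired analysis was possible because the rats of different groups share no replicate number. Depth could not be read from the files, and low genes are limited by an unknown number of reads.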
